A study of Mus musculus with 10 samples.

Results

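The positions described here are the autosomal CG positions at which 5-carboxylcytosine (5caC) was listed in mouse embryonic stem cells labelled Tdg and grown in serum, and in none of the other 3 groups of the coverage table. They number 170656 of the 914758 autosomal positions listed in any group, and they make up 45.9% of the 371703 autosomal positions listed for serum Tdg. They were chosen by being listed, so their number and their lack of coverage in the other groups follow from the choice and are not findings. The series holds 10 samples in 5 groups of 2 technical replicates. The groups are cells labelled Tdg in serum, cells labelled Tdg in serum-2i, wild-type cells (wt) in serum, wild-type cells in serum-2i, and a negative control of serum cells carrying a triple Tet knockout, whose own values were not analysed here. All cells grew without feeders on gelatin in fetal bovine serum with LIF, and the serum-2i medium also held CHIR99021, which inhibits GSK3, at 3 µM, and PD0325901, which inhibits MEK, at 1 µM. The labels give the gene name Tdg without the kind of alteration, and neither the number of clones nor separate cultures are stated. A coverage table cannot check the genotype, but the totals differ in size between the labels: serum Tdg had 371703 listed autosomal positions and serum-2i Tdg 683575, against 8645 in serum wt and 110315 in serum-2i wt.

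5caC is the last oxidised form that TET dioxygenases make from 5-methylcytosine. Thymine DNA glycosylase, encoded by Tdg, cuts 5caC and 5-formylcytosine out of DNA, and base excision repair then puts an unmodified cytosine in their place. Where the glycosylase is missing, 5caC stays in the DNA and marks where TET enzymes have acted. Serum keeps embryonic stem cells in a mixed state with high DNA methylation, whereas the kinase inhibitors hold them in a naive state with low DNA methylation; the study compared these media as primed and naive states. CpG islands are short stretches rich in CG at many promoters, and those of developmental regulators are bound by Polycomb complexes in embryonic stem cells.

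The table gave 1 coverage value per position and group. The values are multiples of 0.5, read here as the mean of the 2 technical replicates, and they were not scaled to a common total. No position with a coverage under 6 was listed for either Tdg group, under 3 for serum wt or under 4 for serum-2i wt. Absence of a row can thus mean coverage below the group's minimum or removal by the authors, and does not show that 5caC was lacking. With a single value per group there is no replicate spread, so no p-value is given, and the intervals on shares are exact Clopper-Pearson 95% intervals that cover counting error over positions only. Coverage also cannot tell fewer cells with 5caC from a lower 5caC level per cell.

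The sequences of 8 promoter windows show how the positions sit among the CGs of a promoter. Each runs from 250 bases before to 50 bases after a transcription start, on the gene's strand, from RefSeq for GRCm38.p6 (mm10). Capitals mark the CGs listed in serum Tdg alone, and all other letters are in lower case. The first 4 held the most such positions of all windows, Hoxd12, Lhx3 and Tal1 the most within the lists of Hox, other homeobox and developmental bHLH genes, and Gapdh, chosen after its values were seen, is a housekeeping promoter with no position listed in a Tdg group.
Rbmxl2: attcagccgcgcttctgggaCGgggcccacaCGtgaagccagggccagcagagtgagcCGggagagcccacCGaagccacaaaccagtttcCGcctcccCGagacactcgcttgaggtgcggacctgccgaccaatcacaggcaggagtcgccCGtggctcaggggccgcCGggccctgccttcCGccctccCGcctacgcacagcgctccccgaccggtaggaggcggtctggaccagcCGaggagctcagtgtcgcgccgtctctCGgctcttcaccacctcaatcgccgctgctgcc
Acot11: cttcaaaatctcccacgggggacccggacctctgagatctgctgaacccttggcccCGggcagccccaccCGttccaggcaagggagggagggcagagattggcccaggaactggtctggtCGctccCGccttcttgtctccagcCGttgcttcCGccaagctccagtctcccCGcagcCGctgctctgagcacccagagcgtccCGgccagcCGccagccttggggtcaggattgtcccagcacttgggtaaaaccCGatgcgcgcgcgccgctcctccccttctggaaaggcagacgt
Prom2: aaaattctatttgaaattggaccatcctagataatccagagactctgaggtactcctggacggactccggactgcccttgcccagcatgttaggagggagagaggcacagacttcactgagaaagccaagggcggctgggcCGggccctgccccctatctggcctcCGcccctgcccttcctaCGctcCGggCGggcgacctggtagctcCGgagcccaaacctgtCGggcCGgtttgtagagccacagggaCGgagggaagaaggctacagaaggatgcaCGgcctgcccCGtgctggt
Dnajb4: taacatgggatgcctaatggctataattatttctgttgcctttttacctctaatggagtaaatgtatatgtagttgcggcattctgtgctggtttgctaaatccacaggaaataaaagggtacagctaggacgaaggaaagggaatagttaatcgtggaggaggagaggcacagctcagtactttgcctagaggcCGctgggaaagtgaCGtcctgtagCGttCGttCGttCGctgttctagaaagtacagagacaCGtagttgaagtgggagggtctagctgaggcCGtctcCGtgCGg
Hoxd12: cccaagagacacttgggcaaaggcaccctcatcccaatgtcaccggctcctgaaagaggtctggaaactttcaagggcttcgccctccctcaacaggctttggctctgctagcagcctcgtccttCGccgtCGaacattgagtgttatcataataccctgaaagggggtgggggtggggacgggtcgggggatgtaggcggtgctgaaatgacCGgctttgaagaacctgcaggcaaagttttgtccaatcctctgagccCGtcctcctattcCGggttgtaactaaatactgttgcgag
Lhx3: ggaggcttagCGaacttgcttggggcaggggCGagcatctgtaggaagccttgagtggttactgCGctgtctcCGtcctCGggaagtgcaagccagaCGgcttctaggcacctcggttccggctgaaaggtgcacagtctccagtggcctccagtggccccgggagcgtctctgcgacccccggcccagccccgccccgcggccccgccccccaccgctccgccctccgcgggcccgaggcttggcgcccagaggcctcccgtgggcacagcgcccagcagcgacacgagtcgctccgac
Tal1: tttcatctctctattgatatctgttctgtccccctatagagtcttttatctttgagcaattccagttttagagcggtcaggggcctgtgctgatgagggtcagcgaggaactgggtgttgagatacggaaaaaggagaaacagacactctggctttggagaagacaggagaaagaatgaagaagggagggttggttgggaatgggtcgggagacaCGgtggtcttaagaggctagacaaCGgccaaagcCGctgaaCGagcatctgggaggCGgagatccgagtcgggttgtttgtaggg
Gapdh: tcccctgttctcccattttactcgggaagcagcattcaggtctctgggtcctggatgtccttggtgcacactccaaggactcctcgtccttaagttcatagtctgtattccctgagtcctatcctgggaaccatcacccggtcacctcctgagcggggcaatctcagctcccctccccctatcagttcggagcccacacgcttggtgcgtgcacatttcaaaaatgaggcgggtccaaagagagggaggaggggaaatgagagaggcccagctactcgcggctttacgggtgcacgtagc

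Rbmxl2, a retrogene for an RNA-binding protein of male germ cells, carried 12 of its 29 window CGs in serum Tdg alone (chr7:107209195-107209494, plus strand), with coverage between 7.0 and 81.0 and a median of 16.75. The window of Acot11, an acyl-CoA thioesterase (chr4:106804958-106805257, minus strand), had 11 of 20 CGs in serum Tdg alone at 8.0 to 52.5, and 2 more in both Tdg groups. In the window of Prom2, a pentaspan membrane glycoprotein (chr2:127541368-127541667, minus strand), 11 of 15 CGs were listed in serum Tdg alone at 9.0 to 76.0. These CGs all lay in the part of the Prom2 window from 108 bases before the start onwards, so neighbouring CGs were listed together. The window of Dnajb4, an HSP40 co-chaperone (chr3:152193796-152194095, minus strand), showed the same clustering, with 10 of 13 CGs at 7.0 to 52.5, all within 54 bases upstream or 48 bases downstream of the start.

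Hoxd12, a posterior Hox gene of limb and axis patterning (chr2:74674763-74675062, plus strand), had 5 of 13 CGs in serum Tdg alone at 11.5 to 35.0, interleaved with 4 CGs listed in both Tdg groups at 45.0 to 60.0 in serum Tdg. In this Hoxd12 window the CGs shared with serum-2i Tdg were thus the ones of higher serum Tdg coverage. Over the Hoxd12 span the serum Tdg ranges overlapped, at 7.0 to 60.5 in serum Tdg alone and 49.0 to 82.0 in both Tdg groups. In Lhx3, a LIM homeobox gene of pituitary and motor neuron development (chr2:26206526-26206825, minus strand), 6 of 28 CGs were listed, all at least 152 bases upstream of the start and at 8.0 to 18.5. The denser CG stretch nearer the Lhx3 start held no position listed in a Tdg group. Tal1, a bHLH factor of blood formation (chr4:115056176-115056475, plus strand), had 5 of 11 CGs at 8.0 to 43.0, the farthest 35 bases before the start. The Gapdh window (chr6:125165724-125166023, minus strand) held 12 CGs, none of them listed in any Tdg group. It lay inside the Gapdh span (chr6:125161852-125166467). Within 1 kb of the ends of that span were 2 positions in serum Tdg alone and 3 in both Tdg groups.

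The positions in serum Tdg alone lay near gene starts more often than the other classes of listed positions did. A span is the stretch from the first to the last base of a gene in RefSeq, and an end is either of its limits. Within 1 kb of such an end, for protein-coding genes, lay 29690 of the 170656 positions in serum Tdg alone (17.4%, interval 17.2 to 17.6), against 8.06% (7.94 to 8.18) of the 196610 positions listed in both Tdg groups and 4.32% (4.26 to 4.38) of the 448701 positions listed in serum-2i Tdg alone. These intervals treat single positions as independent and leave out that positions lie close together. Inside a protein-coding span lay 60.3% of the positions in serum Tdg alone, 58.3% of those in both Tdg groups and 55.6% of those in serum-2i Tdg alone. Once the 1 kb at each end was left out, the order changed: 49.5% of the positions in serum Tdg alone lay deep inside a span, against 53.5% of those in both Tdg groups and 53.1% of those in serum-2i Tdg alone. Outside every annotated gene lay 29.9% in serum Tdg alone, 32.7% in both Tdg groups and 35.7% in serum-2i Tdg alone. A further 9.05% in serum Tdg alone lay in a long non-coding RNA span outside protein-coding spans, against 8.36% in both Tdg groups and 7.97% in serum-2i Tdg alone. Exon and intron annotation was not used here.

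**Figure D1:**
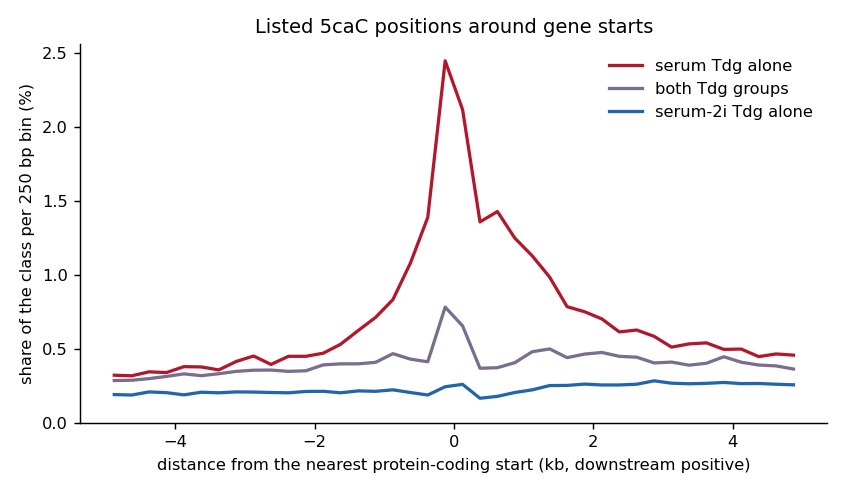
Share of each class of positions (y axis, % of the class per 250 bp bin) against the distance from the nearest protein-coding transcription start (x axis, kb, downstream positive), with 1 line per class. The line of serum Tdg alone peaks at 2.45% in the 250 bp before the start and that of both Tdg groups at 0.783%, while serum-2i Tdg alone stands at 0.244% there.

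Around the starts themselves the contrast was sharper, as the plot of shares by distance shows. The 250 bp before a start held 2.45% of all positions in serum Tdg alone, 0.783% of those in both Tdg groups and 0.244% of those in serum-2i Tdg alone. Several kilobases away the lines came closer together without meeting. Of the 20062 promoter windows of autosomal protein-coding genes, 15.7% held at least 1 position in serum Tdg alone (3157 windows), against 6.79% with a position in both Tdg groups and 5.32% with a position in serum-2i Tdg alone. A total of 141 windows held 5 or more positions in serum Tdg alone, against 27 for both Tdg groups and 12 for serum-2i Tdg alone, although the last class is the largest of the 3.

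CG number set the classes apart within promoters. Windows with a position in serum Tdg alone had a median of 15.0 CGs, those with a position in both Tdg groups 8.0, those with a position in serum-2i Tdg alone 7.0, and all protein-coding windows 14. In windows of 0 to 4 CGs the positions in serum Tdg alone were the rarest class, present in 3.2% of windows, against 4.07% for both Tdg groups and 5.09% for serum-2i Tdg alone. With 10 to 14 CGs they were present in 32.6% of windows, against 14.8% for both Tdg groups and 8.82% for serum-2i Tdg alone. With 30 CGs or more they were still present in 8.38% of windows, whereas both Tdg groups stood at 0.433% and serum-2i Tdg alone at 0.155%. The share of windows was highest at 10 to 14 CGs for serum Tdg alone and at 5 to 9 for the other classes, and declined beyond that in each. Per CG, 5.51% of the CGs in windows of 10 to 14 were listed in serum Tdg alone and 0.337% of those in windows of 30 or more.

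**Figure D2:**
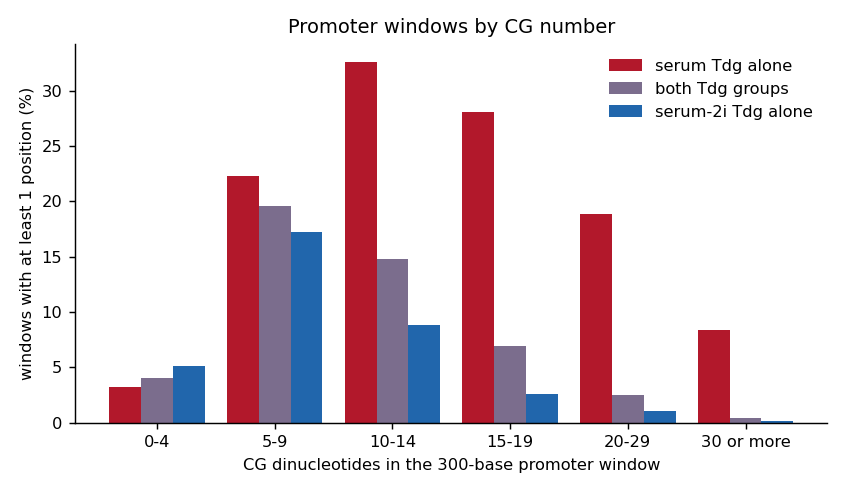
Share of 300-base promoter windows with at least 1 listed position (y axis, %) by the number of CGs in the window (x axis), with 1 bar per class of positions. Bars of serum Tdg alone are the tallest of the 3 classes in each bin from 5 to 9 CGs upwards and the shortest in the bin of 0 to 4 CGs.

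The bases beside the CG also differed between listed and unlisted sites. Of the 347506 CGs in all promoter windows, 2.0% were listed in serum Tdg alone, 0.941% in both Tdg groups and 0.911% in serum-2i Tdg alone. Counted on both strands together, the context ACGG or CCGT was listed in serum Tdg alone in 3.82% of its 27621 CGs, CCGG in 3.8% of its 38663, and CCGA or TCGG in 3.72% of its 33775. GCGC was the lowest, with 0.405% of its 45460 CGs. The extremes were shared between classes, while the order between them was not: GCGC was also the lowest context in both Tdg groups (0.0704%) and in serum-2i Tdg alone (0.152%), and ACGG or CCGT the highest in these classes (2.32% in both Tdg groups and 2.5% in serum-2i Tdg alone). CCGG, close to the highest in serum Tdg alone, stood at 1.78% in both Tdg groups and 1.25% in serum-2i Tdg alone, below ACGT in each (2.25% and 2.33%).

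Positions in serum Tdg alone came in stretches. With the classes thinned to equal size, 51.8% of them had another position of the class within 100 bp, against 44.0% in both Tdg groups and 20.8% in serum-2i Tdg alone. Over all positions, without thinning, the shares were 51.8% in serum Tdg alone, 47.8% in both Tdg groups and 41.7% in serum-2i Tdg alone, so thinning widened the gap between the classes. A run is a row of positions of the same class with gaps of at most 100 bp, whatever other listed positions lie between. Runs of 10 positions or more numbered 352 in serum Tdg alone, 45 in both Tdg groups and 74 in serum-2i Tdg alone. The longest run held 34 positions in serum Tdg alone, against 17 in each of the other classes. Runs of 20 or more numbered 15 in serum Tdg alone and 0 in the others. The 352 runs had a median length of 314.5 bp, and 64.2% touched a protein-coding span. Of them 68 (19.3%) had a position within 1 kb of a span end, so most of the long runs lay away from gene ends.

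Most of the longest runs stood at genes for transcription factors of embryonic patterning. The longest, of 34 positions over 817 bp (chr19:45143201-45144017), lay 6075 bp outside Tlx1, a homeobox gene of spleen and sensory neuron development, with coverage from 8.0 to 127.0 and a median of 19.25. No position of another class interrupted it. Next came 28 positions over 787 bp (chr8:121073153-121073939) inside the long non-coding RNA Fendrr, 10447 bp from Foxf1, the forkhead factor of lung and gut mesoderm that Fendrr neighbours. Inside Tbx4, a T-box factor of the hindlimb, lay runs of 26 and 21 positions, the first at chr11:85894820-85895531. Runs of 22 stood inside Hoxb3 and Hoxd3, which pattern the hindbrain and neck. A run of 24 lay 4504 bp from Pax2, a paired-box gene of kidney and eye. Runs of 21 also stood in Lhx9, a LIM homeobox gene of gonad and limb, 4124 bp from Six2, a factor of kidney progenitors, and 84427 bp from Foxd2, a forkhead gene. Long runs also stood at genes outside this class, with 20 positions each in Itpka, an inositol trisphosphate kinase gene, and Gse1, which encodes a coiled-coil protein; both were named after their values were seen.

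Genes of the developmental lists were then counted over all long runs. The 5 lists of developmental genes (Hox genes, other homeobox regulators, the GATA, T-box, forkhead, Sox and Pax factors, developmental bHLH factors, and secreted signals with their antagonists) together hold 287 genes, 1.39% of the autosomal protein-coding genes. Their genes were inside or nearest to 137 of the 352 runs in serum Tdg alone (38.9%, interval 33.8 to 44.2), 6 of 45 in both Tdg groups (13.3%, 5.05 to 26.8) and 3 of 74 in serum-2i Tdg alone (4.05%, 0.844 to 11.4). For runs of 5 or more the shares were 20.9%, 5.07% and 1.52% in that order of classes. Genes in sparse neighbourhoods gather more runs by distance, and the part of this in the shares was not tested. The lists were chosen with earlier results of these data known, so the shares are a description. Their intervals treat runs as independent, although several runs can lie at the same locus, as at Tbx4.

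Another view is the stretch between neighbouring serum-2i Tdg positions. The longest gap by number of positions held 57 positions in serum Tdg alone over 5.1 kb at Barx1 (chr13:48664645-48669745), a homeobox gene of stomach and tooth, with a median coverage of 17.5. Then came 48 positions over 11.6 kb at Cryba2 and Fev, 48 over 10.1 kb at Hoxc12 and Hoxc13, 47 over 6.47 kb at Vax1, 42 at Foxl1, 41 at Barhl1, 40 at Prdm8 and 39 at Cbx8. Fev and Vax1 encode factors of serotonin neurons and of the optic nerve, Foxl1 one of gut mesenchyme, Barhl1 and Prdm8 factors of the nervous system, and Cbx8 a Polycomb subunit. These stretches are chosen by the absence that defines the positions, so their sizes are a description.

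On the scale of 100 kb windows the positions were likewise uneven. Of 21744 windows with any listed position, 12369 held a position in serum Tdg alone. The 1451 fullest (6.67% of the 21744) held 50% of the positions in serum Tdg alone. The like figure was not computed for the other classes, so it is not a trait shown for this class only. The fullest was in the Hoxa cluster, with 417 positions in serum Tdg alone, 138 in both Tdg groups and 22 in serum-2i Tdg alone. Windows in Hoxb (352 in serum Tdg alone) and Hoxc (350) followed, then the window of Six3 and Six2 (275) and a Hoxd window (261). In each of these 5 windows the positions in serum-2i Tdg alone numbered 7 to 22.

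Genes were then counted over the whole annotation. At least 1 position in serum Tdg alone lay within 1 kb of an end of 9100 of 20661 autosomal protein-coding genes (44.0%), and inside the span of 11888 (57.5%). For genes with at least 10 serum Tdg positions in the span, the share of them listed in serum Tdg alone was called high where its interval lay above 50%, and low where it lay below. Of 6272 such genes, 717 (11.4%) were called high and 1029 (16.4%) low. The rule for the positions used this contrast, so the calls only say how the positions spread over genes. Their intervals also treat neighbouring positions as independent. Over all protein-coding spans 47.0% of serum Tdg positions were in serum Tdg alone, and the median over genes was 45.5%.

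Of the transcription factor lists, the 39 autosomal Hox genes, which set position along the body axis, all had a position in serum Tdg alone within 1 kb of an end, with a median of 18 per gene. With a position counted for each gene it was near, their ends held 719 positions in serum Tdg alone, 216 in both Tdg groups and 17 in serum-2i Tdg alone. Of their serum Tdg positions in spans, 75.2% were in serum Tdg alone, and 25 of the 36 genes with enough positions were called high. Over all autosomal protein-coding genes 44.0% had a position near an end and the span share was 47.0%. Of all those with enough positions 11.4% were called high. The 87 other homeobox regulators all had a position near an end as well, with a median of 10, 78.1% of span positions in serum Tdg alone and 58 of 72 called high. Meox2, a muscle and vessel factor, had 1 position at an end and 0 in the span. Of the 55 GATA, T-box, forkhead, Sox and Pax factors 52 had a position near an end, 71.7% of span positions were in serum Tdg alone, and 22 of 34 were called high. Foxi1, a factor of the inner ear, had 0 at span and ends, whereas Gata4, a factor of heart and endoderm, had 0 at the ends and 140 in the span. The Foxi1 span held only 1 serum Tdg position of any class. Of 43 developmental bHLH factors 39 had a position near an end, with a share of 74.0% in spans and 5 of 14 called high. The muscle factors Myf5 and Myf6 had 0 at span and ends, whereas Myod1 had 18 in the span and 12 at the ends. The spans of Myf5 and Myf6 held 0 serum Tdg positions of any class.

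For secreted signals and their antagonists the count was 56 of 63 genes with a position near an end, a share of 66.1% in spans and 14 of 45 called high. Over all autosomal protein-coding genes the values were 44.0%, 47.0% and 11.4% in that order. The calls use the contrast of the rule and are a description. Shh, the morphogen of limb and neural tube, had 61 positions in serum Tdg alone, 6 in both Tdg groups and 0 in serum-2i Tdg alone inside its span. Wnt10a, a Wnt ligand of tooth and skin, had 73, 11 and 0 in that order of classes, and Wnt1, a Wnt ligand of the midbrain, had 28, 1 and 2. Wnt5b differed from these, with 60 positions in serum Tdg alone beside 43 in both Tdg groups and 70 in serum-2i Tdg alone. Cer1, a secreted Nodal antagonist, had no listed position of these classes at all, and Fgf10, a growth factor of limb and lung, had 11, all in serum-2i Tdg alone.

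By span share, the remaining lists lay nearer the 47.0% over all protein-coding spans. At the ends this did not hold for each list, since 82.4% of primed pluripotency genes had a position there, against 44.0% of all genes. Polycomb subunits had 16 of 26 genes with a position near an end and a span share of 51.4%, with Cbx8 at 72.7% beside Cbx7 at 39.6% and Kdm2b at 45.7%. Suz12, a core subunit of Polycomb repressive complex 2, had 0 positions in serum Tdg alone and 10 in serum-2i Tdg alone, with only 1 serum Tdg position in its span. Naive pluripotency genes had 16 of 26 and 52.2%, primed ones 14 of 17 and 48.2%, genes of DNA methylation and demethylation 15 of 26 and 44.4%, germline genes 17 of 27 and 52.9%, and imprinted genes 17 of 30 and 56.2%. Called high were 3 of 16 Polycomb, 1 of 9 naive, 1 of 9 primed and 1 of 12 methylation genes with enough positions. For germline genes the count was 1 of 6 and for imprinted genes 4 of 12, against 11.4% over all genes. Among the naive factors Esrrb, a nuclear receptor, had 81 positions in serum Tdg alone, 62 in both Tdg groups and 145 in serum-2i Tdg alone. Tbx3, which acts both in naive cells and in the embryo, had 33, 1 and 1 in that order. Zfp42, Dppa2, Dppa4 and Tdgf1, genes expressed in pluripotent cells, had 0 in serum Tdg alone. Their spans held only 3, 2, 1 and 2 serum Tdg positions in that order, so these zeros say little. Tdg itself had 0 in serum Tdg alone, 3 in both Tdg groups and 5 in serum-2i Tdg alone in its span. Dnmt3a, a de novo DNA methyltransferase, had 64, 63 and 54 positions in that order of classes, and Tet3, a TET dioxygenase, had 40, 43 and 18.

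Housekeeping genes and long genes for adhesion and channels had the lowest span shares of the lists. Of 23 housekeeping genes 12 (52.2%) had a position near an end, above the 44.0% over all genes. In their spans 24 of 68 serum Tdg positions (35.3%) were in serum Tdg alone, and the 1 gene with enough positions was not called high. Of 40 long genes 12 had a position near an end, with a share of 33.7% and 0 of 18 called high. Tenm3, a teneurin of synaptic partner choice, had 43 positions in serum Tdg alone, 75 in both Tdg groups and 454 in serum-2i Tdg alone. Wwox, a gene across a fragile site, had 19, 73 and 423 in that order.

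**Figure D3:**
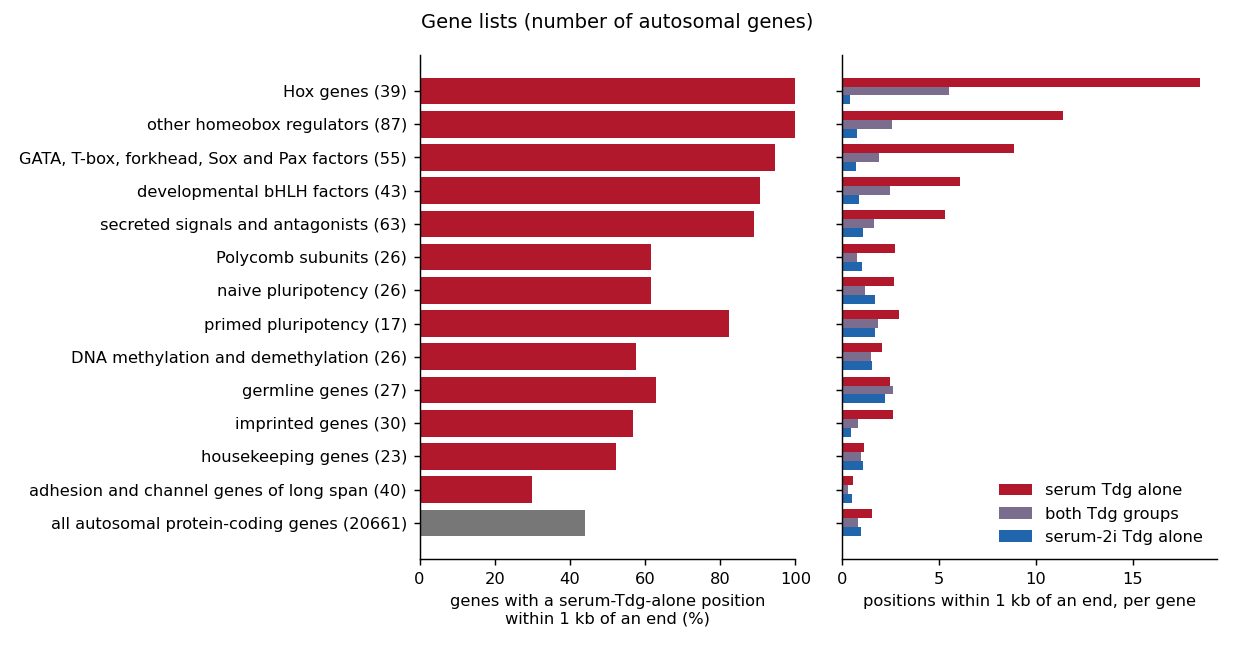
Rows are the 13 gene lists and all autosomal protein-coding genes, with the number of genes in brackets. Left: share of genes with a position in serum Tdg alone within 1 kb of an end (x axis, %), from 100% for Hox genes to 30% for long adhesion and channel genes, with all genes at 44.0%. Right: positions within 1 kb of an end per gene (x axis) for each class, where the bars of serum Tdg alone are the longest in each list but the germline genes.

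Promoter windows were also counted by list. At least 1 position in serum Tdg alone lay in 15 of 24 windows of Hox genes (62.5%), 15 of 28 of germline genes (53.6%), 18 of 34 of bHLH factors (52.9%), 32 of 70 of other homeobox regulators (45.7%), 19 of 46 of the GATA, T-box, forkhead, Sox and Pax factors (41.3%) and 1 of 24 of housekeeping genes (4.17%). The value over all windows was 15.7%. In germline windows, however, 39 CGs were in serum Tdg alone, 43 in both Tdg groups and 22 in serum-2i Tdg alone, whereas Hox windows held 37, 10 and 2 in that order. Germline promoters were thus listed in both media, and Hox promoters mostly in serum.

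Single genes showed the range of the pattern. The most positions in serum Tdg alone inside a span were found in Gse1, with 310 beside 326 in both Tdg groups and 280 in serum-2i Tdg alone. Nfix, a nuclear factor I gene of brain and muscle, had 230, 106 and 13 in that order, and Hoxb3 213, 69 and 8. Lmx1b, a LIM homeobox gene of limb and midbrain, had 152, 45 and 17. Gse1 was thus also full of positions in serum-2i Tdg alone, whereas Nfix, Hoxb3 and Lmx1b held few of those. Gse1 was not the only such gene among those with the most positions in serum Tdg alone. Zfhx3 had 164, 211 and 390 in the same order of classes, and Sh3pxd2a 142, 139 and 216. In Zfhx3 and Sh3pxd2a positions in serum-2i Tdg alone thus outnumbered those in serum Tdg alone. Hoxd3, Hoxa3, Cdh22 and Pax2, also among the genes with the most, went the other way. Near the ends the highest counts were 43 at Hoxd9, 42 at Hoxd12, 41 at Hand1, a bHLH factor of heart and placenta, 40 at Hoxc12 and 37 at Barx1. At the ends of Hoxd9, Hoxd12, Hoxc12 and Barx1 no position was listed in serum-2i Tdg alone, and at those of Hand1 there was 1. Gp1bb, a platelet glycoprotein gene, had 31 near its ends, but 50% of the positions in its span also lay in the span of another gene.

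Among genes with at least 30 serum Tdg positions in the span, the share in serum Tdg alone was highest at Barx1, with 43 of 44 (97.7%, interval 88.0 to 99.9). Lhx1, a LIM homeobox gene of head and kidney, had 50 of 53 (94.3%), Prdm12, a gene of pain-sensing neurons, 75 of 80 (93.8%), and Wnt1 28 of 30 (93.3%). Isl2 and Hmx1, homeobox genes of neurons, had 93.0% and 91.8%. Not all of these genes are patterning factors: Urad, an enzyme gene of urate breakdown, had 93.8% and Ecel1, a neuronal peptidase-like gene, 93.3%. The lowest shares were 3 of 33 in Kif1b, a kinesin motor gene (9.09%, 1.92 to 24.3), 3 of 32 in Ctnnbl1 (9.38%), 4 of 36 in Abat, an enzyme of GABA breakdown (11.1%), 12% in Sfi1 and 12.1% in Ikzf3.

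Coverage at the loci in all groups is shown in the plot of 4 loci. In the Barx1 span serum Tdg listed 44 positions at 7.5 to 45.0 with a median of 18.5, against 1 in serum-2i Tdg at 7.0, 1 in serum wt at 4.5 and 1 in serum-2i wt at 4.0. In the Hoxd12 span serum Tdg listed 34 at 7.0 to 82.0 (median 21.25), against 5 in serum-2i Tdg at 6.0 to 20, 1 in serum wt at 4.0 and 1 in serum-2i wt at 10. The 4 Hoxd12 span positions shared by the Tdg groups read 49.0 to 82.0 in serum Tdg and 6.0 to 20 in serum-2i Tdg, so the ranges did not overlap. In the Tbx4 span 132 positions were listed in serum Tdg at 6.0 to 123.0 (median 16.0), against 26 in serum-2i Tdg at 6.0 to 71.5 (median 13.5), 2 in serum wt and 3 in serum-2i wt. In the Esrrb span more positions were listed in serum-2i Tdg, with 144 in serum Tdg at 6.0 to 67.5 (median 14.25), against 216 in serum-2i Tdg at 6.0 to 71.0 (median 14.5), 4 in serum wt and 24 in serum-2i wt. Since serum-2i Tdg lists more positions in all, the share of the Esrrb serum Tdg positions that were in serum Tdg alone, 56.2% (interval 47.7 to 64.5), was not below the 47.0% over all protein-coding spans. Its 62 shared positions had a median of 16.0 in serum Tdg and 22.25 in serum-2i Tdg.

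**Figure D4:**
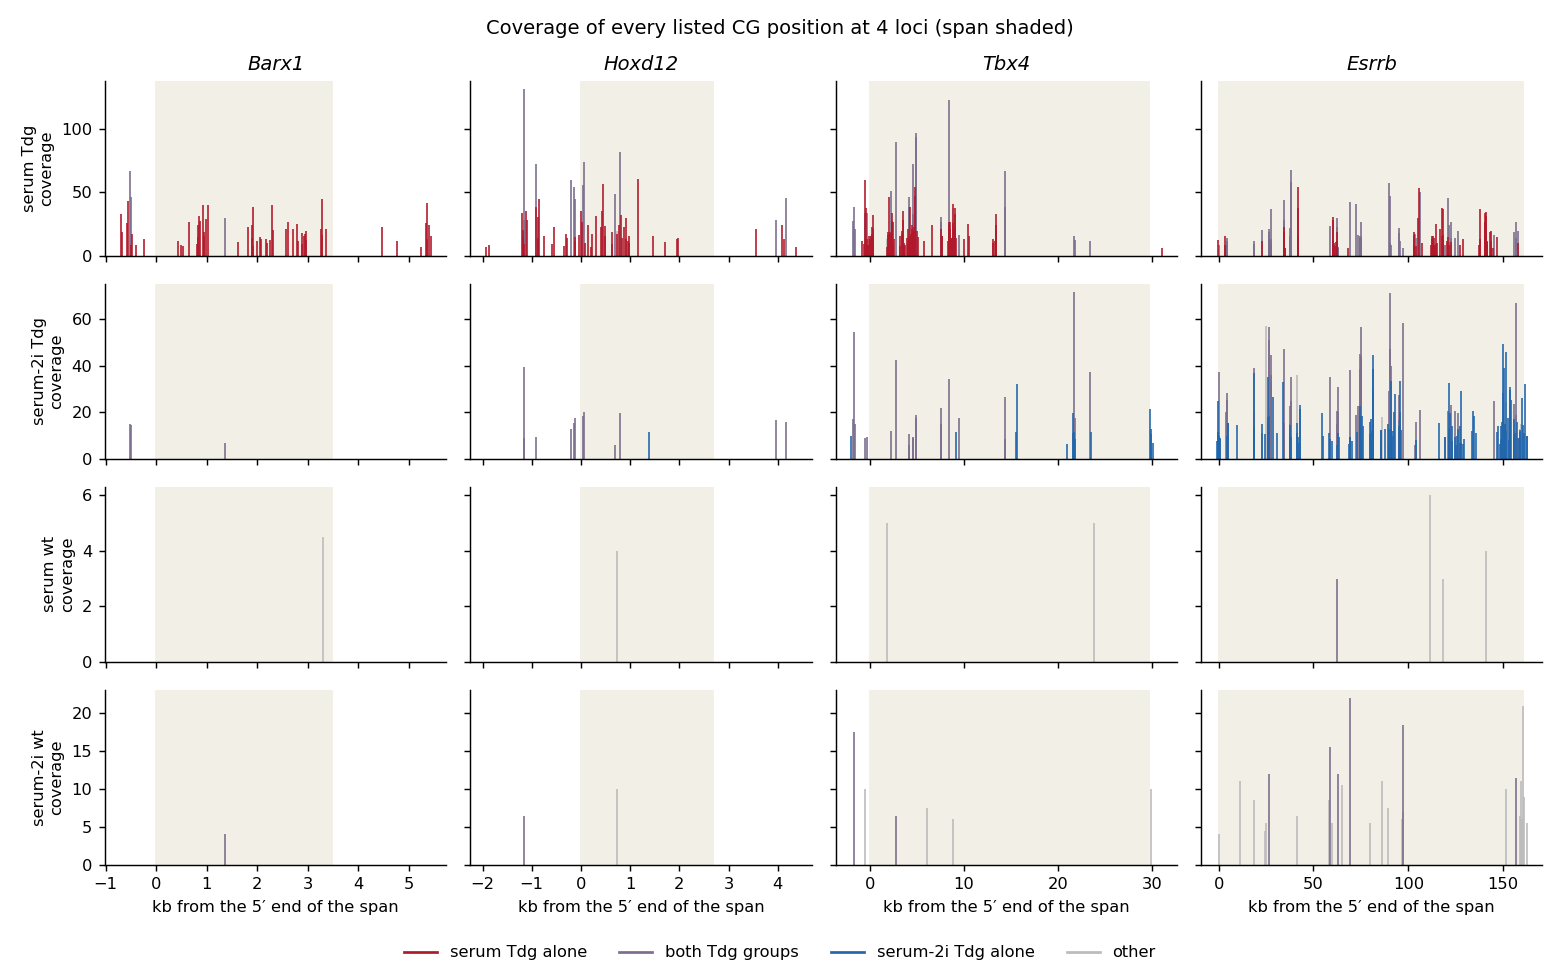
Coverage (y axis, a row per group, each row on its own scale) of each listed CG position at Barx1, Hoxd12, Tbx4 and Esrrb (columns) against the distance from the 5′ end of the span (x axis, kb), with the span shaded and colours for the class. Positions in serum Tdg alone fill the Barx1, Hoxd12 and Tbx4 loci where serum-2i Tdg lists few, while at Esrrb serum-2i Tdg lists 216 span positions and serum Tdg 144.

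The positions listed in both Tdg groups are not among those in serum Tdg alone, and the rule did not use the ratio of their coverages, which allows a comparison at the same CG. Over all 196610 of them the median coverage was 17.5 in serum Tdg and 18.5 in serum-2i Tdg, and the median log2 ratio of serum over serum-2i was -0.05. Within 100 bp of a position in serum Tdg alone the medians were 25 in serum Tdg and 14.5 in serum-2i Tdg, with a median log2 ratio of 0.72, and 75.8% of 51738 positions were higher in serum Tdg. More than 10 kb from any such position the medians were 13.5 in serum Tdg and 24.0 in serum-2i Tdg, with a median log2 ratio of -0.74, and 21.9% of 31109 positions were higher in serum Tdg. The ratio fell with each step of distance. Where at least 10 positions in serum Tdg alone lay within 500 bp, the medians were 40 in serum Tdg and 12 in serum-2i Tdg, with a median log2 ratio of 1.63, and 95.5% of 2227 positions were higher in serum Tdg. A position in serum Tdg alone has by its definition no listed serum-2i Tdg coverage, so low serum-2i Tdg coverage in a stretch and the number of such positions there are linked, and the gradient is a description.

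The lists also differed at shared positions. The median log2 ratio of serum over serum-2i was 1.47 over 396 shared positions in Hox spans, with medians of 38.5 in serum Tdg and 13.25 in serum-2i Tdg. It was 0.94 for other homeobox regulators, 1.15 for bHLH factors, 0.79 for the GATA, T-box, forkhead, Sox and Pax factors and 0.71 for secreted signals. It was 0.25 for Polycomb subunits, 0.0 for germline genes, -0.22 for naive pluripotency genes, -0.32 for housekeeping genes and -0.65 for long adhesion and channel genes. Inside protein-coding spans at large it was 0.0. The link between low serum-2i Tdg coverage and the number of positions in serum Tdg alone holds for the lists too. Hox genes and other homeobox regulators had high ratios and also high span shares in serum Tdg alone (75.2% and 78.1%). The list ratios are thus a description and no separate evidence.

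The positions in serum Tdg alone had lower coverage than the shared ones. Their median was 12, with 5% at or below 6.5 and 5% at or above 34.0, against a median of 17.5 in serum Tdg for positions in both Tdg groups. The median of the positions in serum-2i Tdg alone was also 12, in serum-2i Tdg. Of the positions in serum Tdg alone, 3405 stood at the listing minimum of 6, 34266 (20.1%) reached 20 and 81 reached 100. Just inside the rule, 9156 positions had a coverage of 6 or 6.5, and just outside it, 3326 serum Tdg positions were kept out by a serum-2i Tdg coverage of 6 or 6.5, with a median of 13.5 in serum Tdg. The share of serum Tdg positions that were in serum Tdg alone was 67.2% at a coverage of 6 to 6.5 and declined with each step of coverage to 3.09% at 100 or more. Listing in serum Tdg alone thus went with low serum Tdg coverage.

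Position near gene ends, by contrast, differed at like coverage. At a coverage from 10 to under 15, 17.9% of the positions in serum Tdg alone and 7.2% of those in both Tdg groups lay that close to an end. From 50 to under 100 the shares were 13.5% and 9.89% in that order. At 100 or more they were 9.88% and 10.1%, with 81 positions in serum Tdg alone, so no difference was detectable there. At the edge of the rule the contrast was small. Of the 3326 positions kept out by a serum-2i Tdg coverage of 6 or 6.5, 13.2% lay within 1 kb of an end. That is above the 8.06% of all positions in both Tdg groups. For the 9156 positions in serum Tdg alone at 6 or 6.5 the share was 16.5%. Median serum Tdg coverage differed between these sets, at 13.5 and 6.5.

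**Figure D5:**
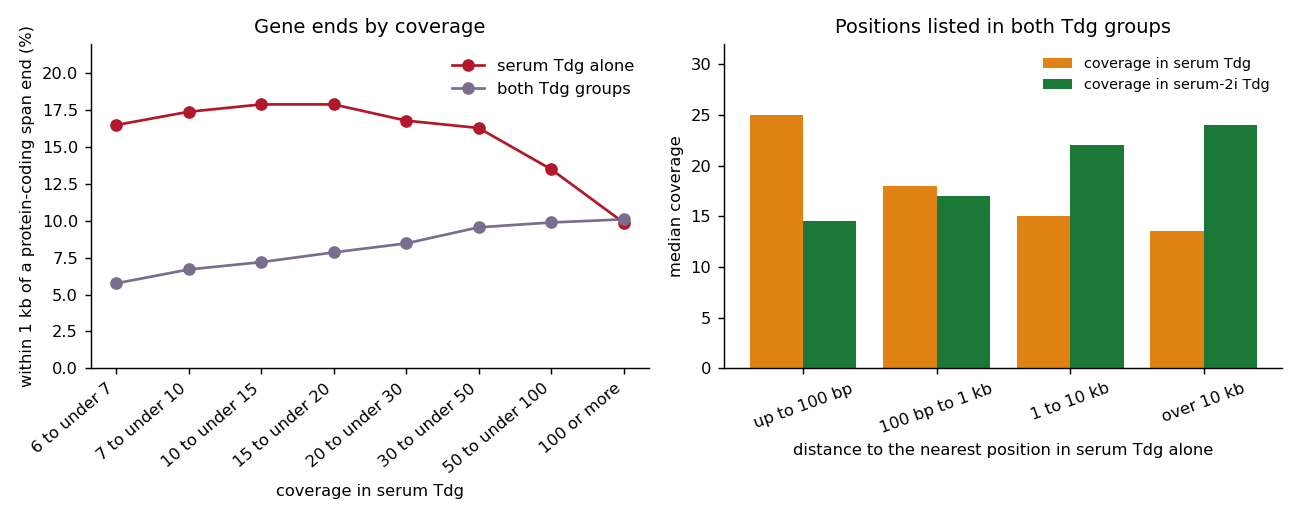
Left: share of positions near protein-coding gene ends (y axis, % within 1 kb) by coverage in serum Tdg (x axis), for serum Tdg alone and for both Tdg groups, whose points come together at 100 or more (9.88% and 10.1%). Right: median coverage in serum Tdg and in serum-2i Tdg (y axis) of positions listed in both, by distance to the nearest position in serum Tdg alone (x axis), from 25 and 14.5 at up to 100 bp to 13.5 and 24.0 at over 10 kb.

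The position of highest coverage in serum Tdg alone (249, chr7:80031088) lay in Zfp710, a zinc finger gene, 17 bp from a serum-2i Tdg position. The next had 181 and was nearest to Id3, an inhibitor of bHLH factors, 38865 bp away and 9 bp from a serum-2i Tdg position. Others were in Srcin1 (162), in Stra6l (148), in Mark2 (145), in Ubald2 (143.5) and in Tle5 (142.5), and outside Sfrp1, a secreted Wnt antagonist (155), Stat6 (137) and Ngfr (130). Of these 10 only the position near Stat6 lay within 1 kb of an end of a span. High coverage in serum Tdg alone thus occurred both beside serum-2i Tdg positions and more than 1 kb from any, as at Sfrp1 (1777 bp), Ubald2 (3117 bp) and Ngfr (2524 bp).

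Neighbouring positions of the other groups were also counted. Within 100 bp a serum-2i Tdg position lay beside 37.3% of the positions in serum Tdg alone, against 64.1% of those in both Tdg groups. Within 1 kb the shares were 80.6% and 91.3% in that order, and only 1759 positions in serum Tdg alone (1.03%) had no serum-2i Tdg position within 10 kb. Most of the positions in serum Tdg alone thus had a CG listed in serum-2i Tdg within 1 kb, though not at the same site. Of the wild-type groups, serum wt listed a position within 1 kb of 10.7% of the positions in serum Tdg alone, against 7.47% of those in both Tdg groups and 2.31% of those in serum-2i Tdg alone. For serum-2i wt the shares were 24.2%, 34.5% and 30.8% in the same order. The rule keeps positions listed in a wild-type group out of the classes of serum Tdg alone and serum-2i Tdg alone but not out of the class of both Tdg groups, so these shares are a description. The same holds for the serum-2i Tdg neighbours. No position in serum Tdg alone is listed in serum-2i Tdg, each position in both Tdg groups is, and listed positions lie close together.

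Across the 19 autosomes the positions were spread broadly. Their share of serum Tdg positions ran from 42.4% on chromosome 16 to 48.8% on chromosome 19. The share within 1 kb of a gene end ran from 14.4% on chromosome 18 to 20.9% on chromosome 7, on each chromosome above the 8.06% of positions in both Tdg groups over all autosomes.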

How the data were processed

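Coverage of 5caC at CG positions was taken from the table the authors deposited; its coverage signal holds 1 value per position and group. Per the labels' protocols, 5hmC was glycosylated and unmodified CGs methylated in sheared DNA, then decarboxylation and azide labelling by engineered SssI were carried out, and biotin-enriched fragments were primed, amplified and sequenced on an Ion Proton. Per the submitters' processing notes the build is mm10; per the labels the control entered the making of the table. The aligner, the listing rule and the scaling were not given in these sources, and values were used as deposited. The table counts from 0: position + 1 was the C of a CG at 13902 of 13902 positions within promoter windows, and coordinates are printed from 1.

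Spans and promoters came from RefSeq (GRCm38.p6), with 20661 autosomal protein-coding genes and 347506 CGs in windows of 300 bases. Of 509 entries in 13 lists (502 distinct symbols), 501 matched an autosomal gene by symbol and 1 by an older symbol, and 7 did not. Thinning used seed 1. Shares have exact 95% intervals (scipy 1.17.1, pandas 2.3.3, Python 3.11.15). Scripts were tested on simulated data. Gene spans that overlap count a position for each gene.

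Genes named are the 10 with the most positions in span and at ends, the 10 highest and 5 lowest shares with at least 30 serum Tdg positions, list members with the most or none, genes at the 10 longest runs and 10 highest coverages, and printed promoters; predicted symbols were left out. Other genes were named after their values were seen. Some genes that the rule names are not reported here. The positions and the gene lists were chosen with earlier results of these data known. Alternatives changed the coverage minimum, the groups required to lack a position, distances, gaps, run size, gene set, chromosomes and the minimum of positions per gene.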

Additional observations from a re-analysis of the deposited data

Results flagged for a closer look

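Chromosome X lay outside the rule, and it held 1636 positions listed in serum Tdg alone, 58.7% (interval 56.9 to 60.6) of its 2785 serum Tdg positions, against 45.9% on the autosomes. It is given because the chromosome is not used in any comparison of the report.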

How the results depend on the processing

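The share near span ends stayed above that of positions in both Tdg groups, and the share with a serum-2i Tdg position nearby below it, under each alternative that gave both values. The contrast in serum-2i Tdg neighbours is linked to the rule under each of them and is a description. At a coverage of at least 10, 115952 positions were left with a median coverage of 15.5; the share near an end was 17.5% against 8.35% in both Tdg groups, the share with a serum-2i Tdg position within 100 bp 38.6% against 64.9%, the share with a class neighbour 50.9%, runs of 10 or more 177, genes with a position near an end 35.7% and genes called high 351. At a coverage of at least 20, 34266 positions were left with a median of 26.5; near an end lay 16.4% against 9.17% in both Tdg groups, inside spans 59.9% against 59.2%, beside a serum-2i Tdg position 41.1% against 67.4%, the class neighbour share was 40%, runs 19 and genes with a position near an end 16.0%.

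Within 500 bp of an end lay 10% against 4.3% in both Tdg groups, at 33.0% of genes, and within 2 kb 28.2% against 15.0%, at 53.2% of genes. With all annotated genes the shares were 24.9% against 14.1% near an end, 70.1% against 67.3% inside spans, and 30% of genes. At a distance of 50 bp the serum-2i Tdg neighbour share was 24.8% against 48.3% and the class neighbour share 38.6%; at 1000 bp they were 80.6% against 91.3%, and 80.1%. Runs of 10 or more numbered 110 with gaps up to 50 bp and 855 with gaps up to 200 bp; runs of 5 or more numbered 3384. With positions in both Tdg groups weighted to the coverage of those in serum Tdg alone, their shares were 7.41% near an end, 57.8% inside spans and 62.1% beside a serum-2i Tdg position. With at least 30 serum Tdg positions per gene 329 genes were called high. With chromosome X, 42.8% of genes had a position near an end. Without positions that had a serum-2i Tdg position within 100 bp, an alternative chosen after seeing the data, 106966 were left, with 20% near an end, 59.6% inside spans, 48.1% beside another of the class and 38.9% of genes.

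Ignoring the wt groups gave 175093 positions, 367 runs and 805 genes called high, and counting positions within 1 bp as the same changed no value. Of the named genes, the share in serum Tdg alone stayed inside its interval in 104 of 108 at a coverage of at least 10, 29 of 95 at 20, and 113 of 116 with the wt groups ignored. No paired analysis was possible because the table gives 1 value per group; leaving out a replicate was not run for the same reason, and other window sizes and coverage-matched CG content were not run, since no genome was used. Depth limits the set: positions near the minimum of 6 may pass or miss listing by counting error.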
